A study of Mus musculus with 4 samples.

Results

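The very long genes described here are the autosomal protein-coding genes of the GENCODE annotation of mm9 that span 300 kb or more from annotated start to end. This rule gave 503 genes of 21418, with spans from 300.5 to 4435 kb and a median of 438.6 kb, and every autosome held between 9 and 46 of them. Just inside the limit were Pam, Nxph1 and Cntn3, at 300.5, 300.6 and 301.4 kb, and just outside it Jazf1, Pde1c and Akap13, at 299.83, 299.81 and 299.1 kb. H3K36me3 ChIP-seq, which maps trimethylation of lysine 36 of histone H3, was carried out by the authors on spermatocytes from mice aged 14 days post-partum. One strain was C57BL/6J (B6), which carries the Prdm9 allele Dom2. The other was B6.Cg-Prdm9<tm1.1Kpgn>/Kpgn (KI), a knock-in on the B6 background in which the last exon of Prdm9, encoding the zinc fingers, comes from the Cst allele. Both strains therefore make PRDM9 and share all other genes, and each had an input sample, labelled 15 days post-partum. Each strain gave 1 list of broad regions and 1 list of narrow (refined) peaks, made from pooled replicates, so none of the values below has a replicate error and strains were not tested against each other. Intervals on shares are Wilson 95% intervals and cover counting error only.

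H3K36me3 is laid down over the bodies of transcribed genes by SETD2, a methyltransferase that travels with elongating RNA polymerase II, and is known to be low at promoters. In meiotic cells the methyltransferase PRDM9 places H3K4me3 on nucleosomes around the sites its zinc fingers bind, which become recombination hotspots, and its catalytic domain can methylate lysine 36 as well. The question behind the strain comparison was where H3K36me3 follows the zinc fingers. Very long genes include many that neurons use for adhesion and signalling, and several underlie common fragile sites, chromosome regions prone to break under replication stress. In a very long gene, broad regions over a transcribed body and narrow peaks that stand alone can both be seen within 1 gene.

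A small share of the narrow peaks in these genes held 10-base words that were more frequent in 1 strain, as counted further on. Stretches of 200 bases are shown, 6 from the middle of peaks with such words to make this visible and 1 without for comparison. All are from the plus strand of mm9 and lie in introns, with capitals marking words of a list chosen on peaks of that strain outside the very long genes. The B6 peaks in Wwox (chr8:117065279-117065478), Mdga2 (chr12:68174092-68174291) and Plcb1 (chr2:135170254-135170453) met no interval of KI, and the KI peaks in Nrxn3 (chr12:90654300-90654499), Opcml (chr9:27947882-27948081) and Alk (chr17:72828454-72828653) met none of B6. The last stretch, in Pcdh15 (chr10:72761628-72761827), is centred on the overlap of a B6 peak and a KI peak. It is not the middle of either peak and has no such word.
Wwox, B6 peak: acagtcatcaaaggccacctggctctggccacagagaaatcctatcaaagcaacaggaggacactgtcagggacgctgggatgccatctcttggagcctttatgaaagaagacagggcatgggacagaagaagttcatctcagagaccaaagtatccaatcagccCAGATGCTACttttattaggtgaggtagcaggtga
Mdga2, B6 peak: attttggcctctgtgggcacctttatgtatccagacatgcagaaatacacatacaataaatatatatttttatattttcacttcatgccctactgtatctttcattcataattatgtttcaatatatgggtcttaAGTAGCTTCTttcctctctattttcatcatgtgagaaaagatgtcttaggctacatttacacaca
Plcb1, B6 peak: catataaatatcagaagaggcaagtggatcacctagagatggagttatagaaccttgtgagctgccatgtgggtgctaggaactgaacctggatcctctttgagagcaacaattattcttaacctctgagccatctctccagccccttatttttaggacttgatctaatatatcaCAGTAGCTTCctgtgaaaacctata
Nrxn3, KI peak: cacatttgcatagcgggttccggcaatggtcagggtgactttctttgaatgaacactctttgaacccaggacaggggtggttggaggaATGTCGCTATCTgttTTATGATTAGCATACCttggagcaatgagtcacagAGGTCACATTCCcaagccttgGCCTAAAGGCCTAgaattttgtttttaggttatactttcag
Opcml, KI peak: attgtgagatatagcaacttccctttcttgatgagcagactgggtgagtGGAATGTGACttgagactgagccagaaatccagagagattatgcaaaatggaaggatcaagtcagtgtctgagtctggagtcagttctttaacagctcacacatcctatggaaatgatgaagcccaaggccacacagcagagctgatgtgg
Alk, KI peak: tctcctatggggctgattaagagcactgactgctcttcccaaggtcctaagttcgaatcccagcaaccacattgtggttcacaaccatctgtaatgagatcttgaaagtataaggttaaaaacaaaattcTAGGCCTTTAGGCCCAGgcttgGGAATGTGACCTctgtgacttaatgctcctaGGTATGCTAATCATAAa
Pcdh15, shared peak: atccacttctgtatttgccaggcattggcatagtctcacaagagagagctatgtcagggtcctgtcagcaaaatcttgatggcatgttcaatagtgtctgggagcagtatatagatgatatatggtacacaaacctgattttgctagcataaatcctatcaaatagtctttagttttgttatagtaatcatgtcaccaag
The B6 peak in Wwox, a gene for an oxidoreductase at a common fragile site, lies 101.8 kb from the start of the gene. The KI peak in Nrxn3, which encodes a presynaptic adhesion protein, lies 693.1 kb from its start, and its 200 bases hold 4 separate runs of listed words. The peak in Alk, a receptor tyrosine kinase gene, holds 3 runs, and its longest stretch in common with the Nrxn3 peak, read on either strand, is 28 bases. On the opposite strand the 3 runs of Alk come in the same order and at similar distances as the last 3 of Nrxn3. The runs in these peaks are therefore not independent of one another. Among the B6 sequences, the longest stretch in common was 9 bases. Repeat annotation was not used here.

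Most very long genes carried little H3K36me3 in either strain. The covered share, which is the percent of a gene's span inside merged broad regions, had a median of 3.13% in B6 (quartiles 1.38% and 19.5%) and 3.91% in KI (2.30% and 13.5%). In genes of 100 to 300 kb, the nearest length class, the median was 29.4% in B6 and 20.9% in KI, and the very long genes had the lower median on 19 of 19 autosomes in each strain. The very long genes made up 11.7% of the autosomal bases without assembly gaps but held 10.3% of the covered bases in B6 and 9.07% in KI. Narrow peaks were the reverse, with 16.2% of the autosomal refined peaks of B6 and 14.2% of those of KI inside them.

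A gene was called marked when 50% or more of its span was covered in both strains, and unmarked when less than 5% was covered in both. There were 56 marked very long genes, or 11.1%, where the same rule called 40.2% of all autosomal protein-coding genes. Unmarked were 262, or 52.1%, beside 38.4% of all genes, and the other 185 were intermediate. In B6 80 genes (15.9%, interval 13.0% to 19.4%) reached 50%, against a background of 43.2%, and in KI 57 (11.3%, 8.85% to 14.4%) against 41.6%. The corresponding shares in the class of 100 to 300 kb were 42.9% (40.6% to 45.2%) and 38.1% (35.9% to 40.4%), so these intervals lay well apart. Of the genes over the limit in 1 strain alone, 24 were in B6 and 1, Ulk4, was in KI. B6 also led elsewhere. Over all 21418 genes, 9257 reached 50% in B6, 8900 in KI and 8602 in both. In the class of 100 to 300 kb these counts were 762, 677 and 674. When broad regions narrower than 5 kb were left out, the share at 50% or more fell to 5.57% in KI and the median covered share was 0 in both strains.

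The 300 kb limit stands on a slope rather than at a step. The share of marked genes was 44.0% at spans of 100 to 150 kb, 23.95% at 250 to 300 kb, 17.3% at 300 to 400 kb and 2.08% at 1000 kb or more. Unmarked genes took the opposite course, from 20.7% through 34.1% and 41.3% to 79.2%. Genes at the limit themselves varied widely, since Akap13 just outside it had 88.1% of its span covered in B6 and 73.7% in KI, whereas Nxph1 just inside it was covered to 0% and 1.497%. Pam and Cntn3 were at 23.1% and 5.97% in B6 and at 9.09% and 3.82% in KI, and Jazf1 and Pde1c at 58.1% and 9.34% in B6 and at 43.4% and 27.0% in KI.

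**Figure D1:**
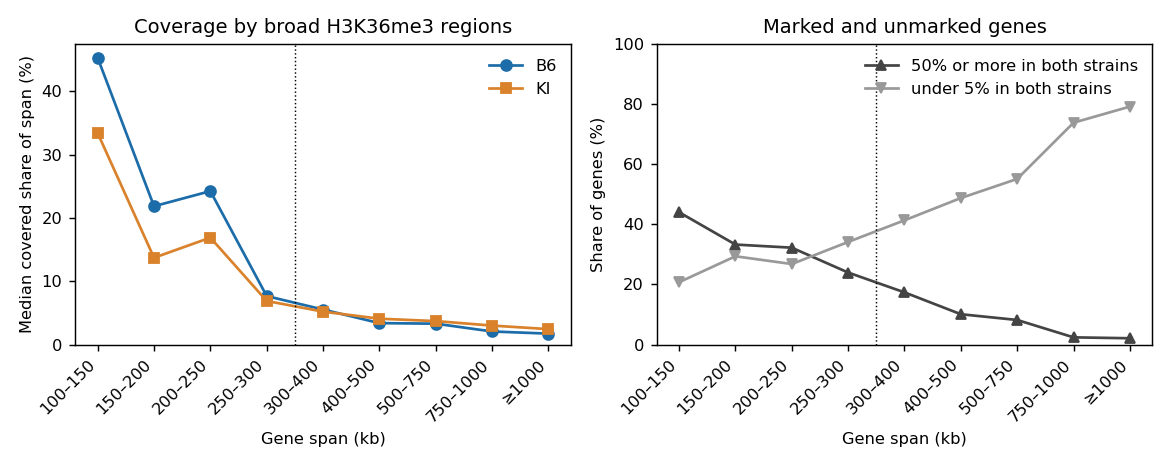
Covered share and marking by gene span. Left, median percent of the span inside broad H3K36me3 regions for each step of span in kb, with B6 as circles and KI as squares; right, percent of genes covered to 50% or more in both strains (upward triangles) and to under 5% in both (downward triangles). The dotted line is the 300 kb limit, beyond which the marked share went from 17.3% to 2.08% and the unmarked share from 41.3% to 79.2%.

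Of the 56 marked very long genes, 25 were in a list of widely used genes described below. That list was drawn up with earlier results of these data known. Ranbp17, a nuclear transport receptor of the importin family, had the highest mean, with 99.4% of its 302.0 kb (chromosome 11 of mm9, 33111794 to 33413746) covered in B6 and 98.2% in KI. Nbas, which acts in transport from the Golgi to the endoplasmic reticulum, was covered to 98.2% and 97.8%. Vps13b, a lipid transfer protein of the Golgi, was covered to 98.2% and 96.1% over 559.7 kb (chromosome 15, 35301301 to 35860983). These genes were thus almost fully inside broad regions in both strains. The next in order were Tanc2 (96.5% in each strain), a scaffold protein, and Dennd1a (98.3% and 94.6%), which acts on Rab35 in endocytosis. Gphn, the scaffold of inhibitory synapses that also makes molybdenum cofactor, was at 99.1% and 91.9%, and Scaper, which binds cyclin A, was at 96.1% and 94.7%. Btbd9, Cadm1 and Gtdc1 completed the 10 highest, with 97.8% to 98.9% in B6 and 91.4% to 93.0% in KI. All 10 were under 560 kb long. The single marked gene of 1000 kb or more was Auts2, which encodes a partner of a Polycomb complex and had 87.9% of its 1106 kb covered in B6 and 65.2% in KI (chromosome 5, 131913205 to 133019214). Other marked genes were Stag1 of the cohesin complex, Exoc4 of the exocyst, which tethers vesicles (95.7% and 73.3%), Fto, an RNA demethylase, and Mad1l1 of the spindle checkpoint.

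The longest genes gave another picture. Cntnap2, a neurexin-like adhesion gene of 2241 kb, had a covered share of 1.41% in B6 and 1.79% in KI, with 11 and 14 refined peaks. Ptprd, a receptor phosphatase gene of 2271 kb, was at 3.19% and 3.21%, and Lrp1b, a gene of the LDL receptor family, at 1.70% and 1.43% over 2058 kb. Dlg2, Csmd1, Nrxn3 and Fhit, each of 1612 kb or more, lay between 0.806% and 2.42% in both strains. In these genes the signal was a thin series of isolated regions, and none had a marked body. Macrod2, which encodes an enzyme that removes ADP-ribose, differed from these neighbours in length, with 11.4% of 1998 kb in B6 and 8.54% in KI. The top 2 by length, Gm20388 (4435 kb) and Fgfr2 (3009 kb), are annotated over many smaller genes. Within the other genes that Gm20388 overlaps, 63.3% of bases were covered in B6 and 59.6% in KI, but elsewhere in its span 12.3% and 13.7%. For Fgfr2, as annotated, the values were 44.9% and 43.4% within other genes against 8.11% and 8.70% elsewhere. Of the 503 genes, 386 overlapped no other protein-coding gene and 7 overlapped 5 or more. No broad region in either strain was found in 4 genes, namely Skint5 and Skint6, of a family expressed in skin and thymus, Epha5, an ephrin receptor gene, and Gm3739. The authors kept only reads with a unique position in the genome, and how much of these genes such reads could reach was not examined.

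The functional lists were drawn up with earlier results of these data known, so differences between them are a description only. They can be read against the medians of all very long genes given above, 3.13% in B6 and 3.91% in KI. Of 60 very long genes for synaptic adhesion and cell recognition, 1 was marked, 15 were intermediate and 44 were unmarked, with a median covered share of 1.67% in B6 and 3.01% in KI. The marked one was Cadm1, an adhesion protein that spermatogenic cells use to contact Sertoli cells. The longest of that list after Cntnap2, Csmd1 and Nrxn3 was Ctnna3, an alpha-catenin gene, at 2.07% and 2.351%. Of 10 cadherins and protocadherins 9 were unmarked and none was marked, Pcdh15, a protocadherin of hair cells, being at 1.55% and 2.39%. Of 13 glutamate receptor genes 11 were unmarked and none was marked, with Grm7, a metabotropic receptor, at 2.39% and 2.06%. Among 24 genes for voltage-gated and calcium release channels and their subunits, 1 was marked, the release channel gene Itpr1 (85.5% and 64.5%), and 16 were unmarked. Of 5 phosphodiesterase genes 4 were unmarked and none was marked. The 6 receptor tyrosine phosphatase genes had medians of 3.45% and 4.85%, above those of all very long genes, with 2 unmarked, 4 intermediate and none marked.

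Lists of regulators and of widely used genes, drawn up under the same limit, were more mixed. Of 33 transcription factor genes 16 were unmarked and 1 was marked, the zinc finger repressor gene Zbtb20, with 87.2% covered in B6 and 62.7% in KI. Of 7 genes for RNA-binding proteins 1 was marked, Celf2, a splicing regulator (60.05% and 51.9%), while Rbfox1, another, was at 1.91% and 3.15%. Cytoskeletal and scaffold genes numbered 43, with 7 marked and 16 unmarked, and had medians of 6.43% in B6 and 6.33% in KI. The 4 Dock genes, exchange factors for small GTPases, spread over the whole range, from Dock2 (1.91% and 3.82%), which blood cells use, to Dock3 (94.2% and 92.0%). Of 22 genes at common fragile sites 4 were marked and 12 were unmarked, with medians of 3.76% and 3.90%. The 56 genes listed as widely used had the highest medians of the large lists, 60.5% in B6 and 44.4% in KI, with 25 marked and 9 unmarked. Their longest members, Fhit and Immp2l, of 1306 kb or more, were covered to no more than 3.71%. The 239 genes in none of the lists had 20 marked, 91 intermediate and 128 unmarked.

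In some intermediate genes the covered share differed strongly between the side of the annotated start and that of the end. With each span cut at its midpoint, 26 of the 185 intermediate genes had a covered share at least 3 times higher on the side of the annotated end in both strains, and 13 had one at least 3 times higher on the side of the start. With no ratio asked, 88 were higher on the end side in both strains and 74 on the start side. No floor was set, so sparsely covered genes are counted, such as Frmd4a (1.85% against 11.1% in B6, 0% against 3.35% in KI). Other length classes were not counted in this way. The genes named next were chosen after their values were seen. Fry, a large protein that scaffolds kinases in cell morphogenesis, had a covered share of 0% in B6 and 4.75% in KI on the start side, but of 69.9% and 60.4% on the end side. Arhgap26, which encodes a GTPase-activating protein, had 2.97% and 5.44% against 94.9% and 79.1%. Myt1l, a zinc finger gene known from neurons, had 2.53% and 1.77% against 41.1% and 42.1%. Coverage of this kind leaves the annotated start bare and fills the later part of the gene in both strains. The reverse was seen in Mei4, which is required for meiotic double-strand breaks, with 85.9% and 45.9% on the start side against 0% and 2.34% on the end side. Macrod2 had 21.0% and 15.3% against 1.85% and 1.80%, and Wwox had 19.8% and 16.3% against 1.53% and 4.93%. Transcript data were not used here, so which start each gene uses was not examined.

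**Figure D2:**
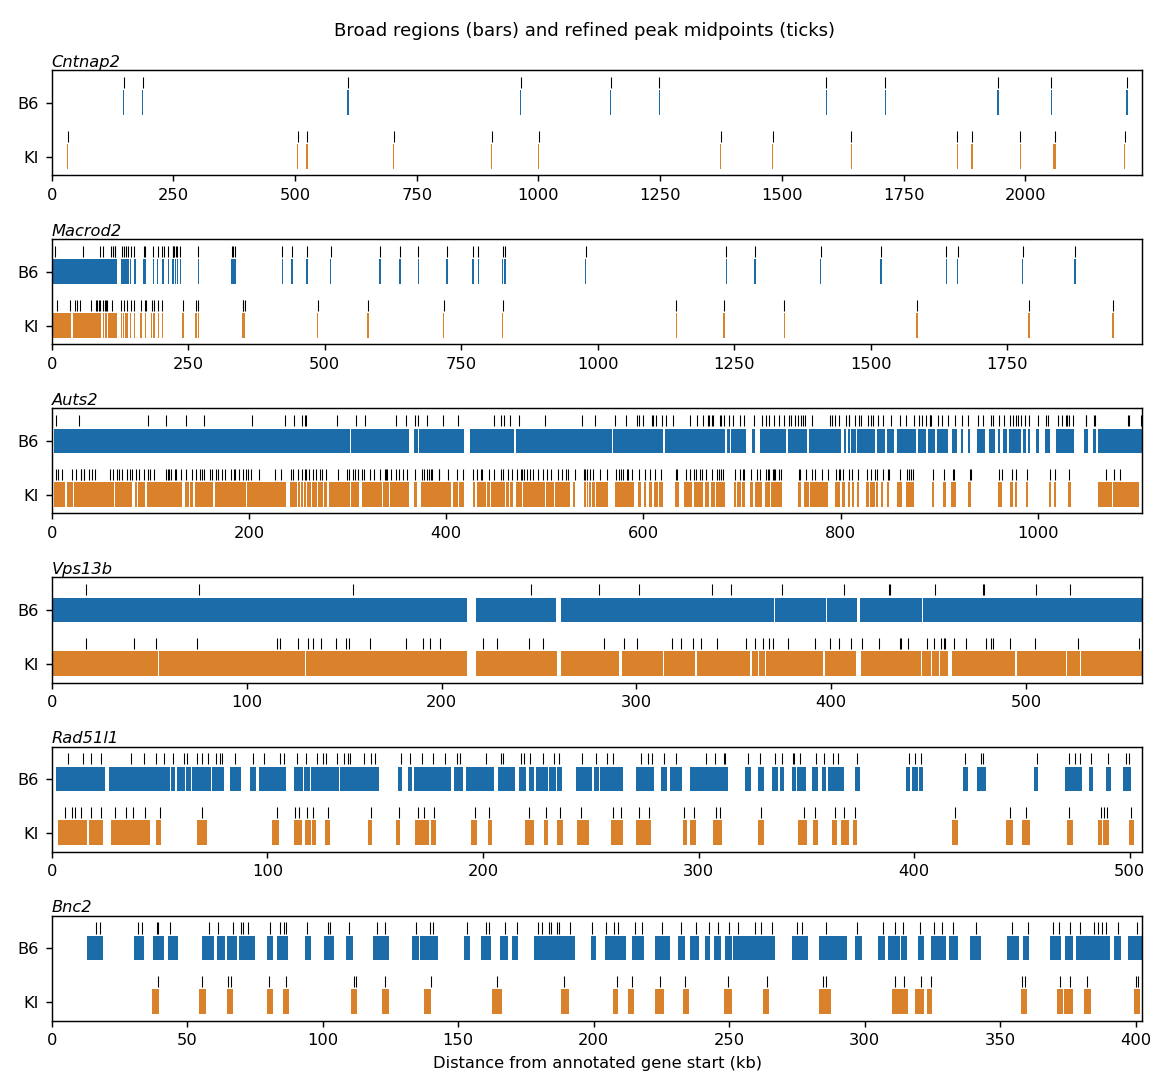
Maps of 6 very long genes along the distance from the annotated start in kb, drawn in the direction of transcription, each on its own scale. Bars are merged broad regions and ticks are midpoints of refined peaks, with B6 above KI; Cntnap2 has isolated regions that differ between strains, Macrod2 is filled near its start, Vps13b is almost filled, and Auts2, Rad51l1 and Bnc2 are less covered in KI.

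The strains differed in how fully the marked genes were covered. Among very long genes with a mean covered share of 50% or more, 68 of 70 were higher in B6, 1 was higher in KI and 1 was equal, and the median of KI minus B6 was -12.06 percentage points. At 20% to 50%, 43 of 47 were higher in B6 with a median of -10.88 points, and at 5% to 20% 64 of 92 with -2.43 points. Below 5% the direction turned, with 205 of 294 higher in KI and 76 in B6, and a median of 0.80 points. Summed over these classes 251 of the 503 genes were higher in B6, 236 were higher in KI and 16 were equal. Over all 21418 genes 6545 (30.6%) were higher in B6 and 3773 (17.6%) in KI. Of 12090 genes under 20 kb, 6642 in B6 and 6542 in KI had a covered share of 0. Short genes without coverage thus lower the background shares, which cannot be compared directly with those of very long genes. The class of 100 to 300 kb had the same turn, with 617 of 723 genes higher in B6 at 50% or more but by a median of -4.29 points, and 300 of 547 higher in KI below 5%.

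A gene was called higher in a strain when its covered share was at least 2 times that of the other and at least 10%. On this rule 24 very long genes, or 4.77%, were higher in B6, beside 4.70% of all genes, so the share was near the background. Higher in KI were 2 genes, or 0.398%, beside a background of 4.06%. The class of 100 to 300 kb had 6.86% called for B6 and 1.24% for KI. Bnc2, a zinc finger gene active in germ cells, spans 402.5 kb (chromosome 4, 83918446 to 84320990) and had 53.6% covered in B6 and 17.0% in KI. Rad51l1, a gene of homologous recombination that spans 505.9 kb (chromosome 12, 80398338 to 80904257), had 60.7% and 29.4%. Nfia, a CCAAT-binding factor gene, had the highest ratio, with 18.6% against 4.08%. Among the others were Reln, an extracellular guidance protein (47.7% and 21.1%), Dock4 (42.8% and 18.6%), Utrn, the dystrophin relative (32.8% and 9.65%), and Dst, a cytoskeletal linker (39.3% and 16.2%). Of the 24, 4 were among the 33 transcription factor genes, 4 among the 56 widely used genes, 3 among the 43 cytoskeletal and scaffold genes and 10 among the 239 in no list, beside 24 of 503 in all. In KI the called genes were Hydin, a component of the ciliary and sperm axoneme (4.81% in B6 and 11.1% in KI), and 4930485B16Rik (2.78% and 10.3%).

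By difference in points, the 5 largest toward B6 were Zfp385b, Bnc2, Gmds, Bre and Rad51l1, of which Bnc2 and Rad51l1 also passed the ratio of 2. Zfp385b, a zinc finger gene, had 87.5% in B6 and 47.1% in KI. Gmds, the first enzyme of GDP-fucose synthesis, had 93.3% and 60.1%, and Bre, a subunit of a BRCA1-associated deubiquitinase complex, had 92.8% and 60.6%. These 3 did not reach that ratio. Among the largest on the KI side were Ulk4, a kinase-like gene (45.3% in B6 and 53.0% in KI), and Kif26b, a kinesin gene (1.49% and 8.05%). Of 4 DNA repair and meiosis genes, gathered after their values were seen, all were higher in B6, as were 111 of the 117 very long genes with a mean covered share of 20% or more, the range in which all 4 lie. They were Mei4 (42.9% and 24.1%), Xrcc4 of DNA end joining (60.6% and 36.8%), Bre and Rad51l1. Of 7 cilium and sperm tail genes gathered likewise, 3 were higher in B6 and 4 in KI.

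**Figure D3:**
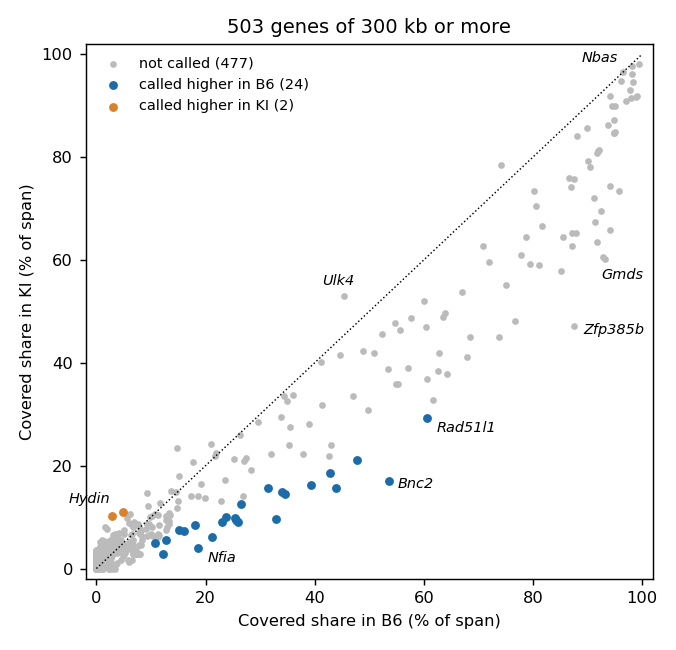
Covered share in B6 (x axis) and in KI (y axis), in percent of the span, for 503 very long genes, 1 point per gene, with the dotted line at equal shares. Blue points are the 24 genes called higher in B6 and orange points the 2 called higher in KI; above a mean of 50%, 68 of 70 points lie below the line.

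Markers of cell types were read from the same lists. All 11 germ cell and meiosis markers were marked in both strains, with a lowest share of 82.4% in B6 and 77.4% in KI. The 5 Sertoli cell markers were all higher in B6, with 5.19% to 71.7% covered (median 41.98%) against 0% to 8.49% in KI (median 0.333%). Wt1 was at 71.7% and 8.49%, Sox9 at 45.2% and 0%, Amh at 41.98% and 0.333%, Gata4 at 19.6% and 8.25% and Cldn11 at 5.19% and 0%. These markers thus moved with the strain, in the same direction as the 24 called genes, and their part in that result was not tested. Of the 4 Leydig cell markers 3 were unmarked, and Star was covered over its whole length in both strains. All 4 neuron markers were unmarked, among them the very long genes Rbfox3 and Syt1. The study's merged KI reads also outnumbered those of B6, and the part of depth in the differences was not tested.

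In the marked genes B6 coverage was also in larger pieces. The widest broad region of a marked gene had a median of 122.2 kb in B6 and 57.0 kb in KI, and was wider in B6 in 51 of 56 genes, in KI in 2 and equal in 3. The median number of regions per gene was 16 in B6 and 28.5 in KI. In B6 a single region filled 300.2 of the 302.0 kb of Ranbp17, and the widest regions, counted within the gene, were in Stag1 (313.0 kb), Gphn (310.5 kb) and Auts2 (300.5 kb). In KI the widest were in Ccdc46, a centrosomal gene (223.5 kb), and Rere, a corepressor gene (164.0 kb). Refined peaks had the opposite order, with more in KI in 52 marked genes and more in B6 in 4. Vps13b had 17 in B6 and 59 in KI, Auts2 130 and 216, and Exoc4 69 and 132.

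Every refined peak lay inside a broad region of its own strain, so classes set by broad coverage fix in part how many refined peaks a gene can hold, and densities by class are given as a description. A peak was assigned to a gene by its midpoint, which gave 8778 peaks in very long genes in B6 (31.1 per Mb) and 9683 in KI (34.3 per Mb). The class of 100 to 300 kb had 50.02 and 62.5 per Mb, and all autosomal protein-coding genes had 43.6 and 52.6. In marked genes the density was 92.2 per Mb in B6 and 151.8 in KI, and in intermediate genes 58.9 and 49.5. Unmarked genes had 6.13 and 8.54 per Mb. KI thus had the higher density at both ends of the range of coverage, and B6 between them. In unmarked genes 167 of 262 had more peaks in KI and 63 more in B6, and the KI list was also the longer over the whole genome, with 72692 peaks against 58502. Merged regions in unmarked genes had a median width of 2.5 kb in both strains. Per gene the median number was 6 for B6 and 8 for KI. The highest counts were in Gm20388 (177 and 218), Auts2, Sdk1, an adhesion gene (160 and 146), Fgfr2 (113 and 138) and Zbtb20 (86 and 144).

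Along the genes, the annotated start was nearly free of peaks. Within 1 kb of the start of the 503 genes lay 1 refined peak in B6 (0.994 per Mb) and 5 in KI (4.97 per Mb). From 5 to 20 kb after the start the density was 38.6 and 39.1 per Mb. In marked genes the covered share was 14.1% in B6 and 10.7% in KI within 1 kb on either side of the start. It was 68.4% and 61.0% at 1 to 5 kb after the start, 85.7% and 73.0% at 5 to 20 kb, and 91.3% and 79.2% at 50 to 100 kb. Pooled over the marked genes, coverage thus rose steeply over the first 20 kb and little beyond. These pooled shares do not describe each single gene. With each gene cut into 10 equal parts, the last part had the highest density in both strains, 37.8 per Mb in B6 and 38.7 in KI. In marked genes the strains took different courses, as B6 went from 70.3 per Mb in the third part to 114.3 in the last, whereas KI was highest in the sixth part with 171.0 per Mb and had 138.0 in the last. Coverage in KI fell from 80.2% in the fifth part to 70.7% in the last, and in B6 from 93.7% to 83.4%. Midpoints of 252 B6 peaks and 278 KI peaks lay in exons of the very long genes, which was 2.87% in each strain (2.54% to 3.24% in B6 and 2.56% to 3.22% in KI), where these exons made up 1.48% of the bases. The share in these exons was thus above their share of bases, while more than 97 in 100 peaks were centred outside them. Exons of other genes that overlap the very long genes were not counted.

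**Figure D4:**
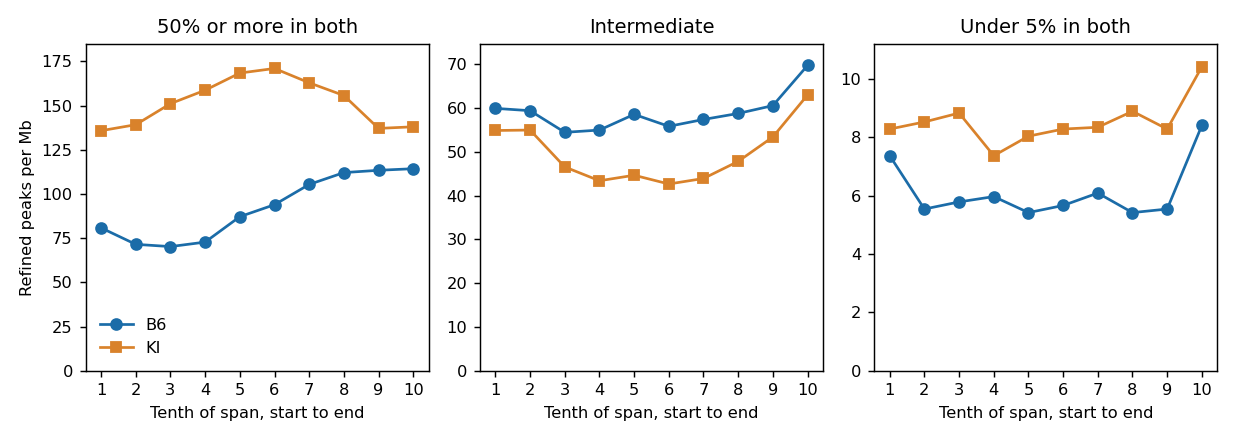
Refined peaks per Mb in 10 equal parts of the gene, from annotated start (1) to end (10), for 56 marked, 185 intermediate and 262 unmarked very long genes, with B6 as circles and KI as squares. The y axes differ between panels; in marked genes the B6 density reached 114.3 per Mb in the last part, while that of KI was highest, at 171.0, in the sixth.

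Sharing of refined peaks between the strains differed with the marking of the gene. A peak was called shared when it overlapped a refined peak of the other strain by at least 1 bp. In all very long genes 1351 B6 peaks were shared, or 15.4% (14.7% to 16.2%), and 1347 KI peaks, or 13.9% (13.2% to 14.6%), where the backgrounds over all protein-coding genes were 18.9% and 15.7%. In marked genes 23.0% of B6 peaks and 13.9% of KI peaks were shared, and in intermediate genes 14.6% and 17.3%. In unmarked genes 32 of 1005 B6 peaks (3.18%, 2.26% to 4.46%) and 32 of 1400 KI peaks (2.29%, 1.624% to 3.21%) were shared. The low share follows in part from the class itself, since less than 5% of an unmarked gene is covered in the other strain. Unmarked genes of 100 to 300 kb were alike in this, with 2.30% (1.21% to 4.30%) and 1.622% (0.855% to 3.05%), and the intervals of the classes overlapped. The peak in Pcdh15 printed above is among the 32.

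Many narrow peaks stood where the other strain had no interval of either kind. In all very long genes this held for 54.3% of B6 peaks and 31.6% of KI peaks, against 42.2% and 17.8% in genes of 100 to 300 kb. Over all autosomal protein-coding genes it held for 37.3% and 19.2%. On autosomes outside protein-coding genes it held for 62.8% and 67.35%, above the shares in very long genes. In unmarked genes it held for 90.3% (88.4% to 92.0%) of B6 peaks and 92.9% (91.5% to 94.2%) of KI peaks, where the rule for unmarked genes leaves at least 95% of each span without an interval of the other strain. In marked genes the strains parted, with 29.5% (27.6% to 31.5%) in B6 but 3.32% (2.78% to 3.95%) in KI, and B6 regions covered most of the span of these genes. Cntnap2 and Nrxn3 had no shared refined peak, while Auts2 had 31 B6 peaks that were shared and Bre had 20.

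**Figure D5:**
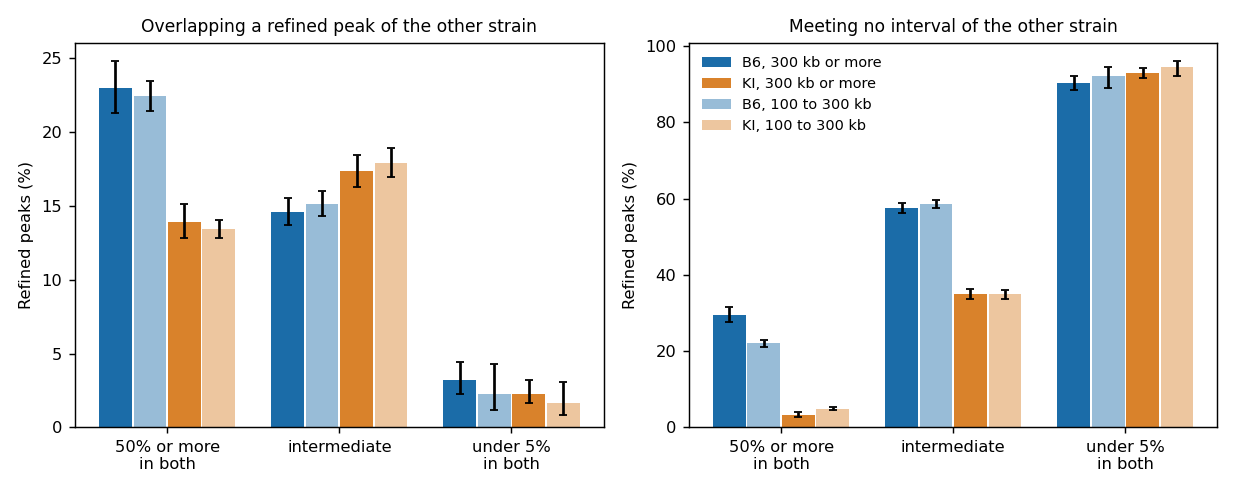
Sharing of refined peaks by marking of the gene. Left, percent of refined peaks that overlap a refined peak of the other strain; right, percent that meet no interval of the other strain, for B6 (blue) and KI (orange) in genes of 300 kb or more (dark) and 100 to 300 kb (light), with Wilson 95% intervals as bars, and in unmarked genes the left share was 3.18% in B6 and 2.29% in KI.

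The sequences printed above, other than that of Pcdh15, were drawn from these strain-only peaks. For each strain 20 words of 10 bases were chosen on autosomal strain-only peaks outside the very long genes, and then counted in windows of 400 bp at strain-only peaks inside them, on both strands. A word of the B6 list was present in 205 of 4764 B6 peaks, or 4.30% (3.76% to 4.92%), in 1.54% (1.16% to 2.035%) of 3062 KI peaks and in 1.43% of windows 2 kb from the B6 peaks. A word of the KI list was present in 97 of 3062 KI peaks, or 3.17% (2.60% to 3.85%), in 1.18% (0.906% to 1.52%) of the B6 peaks and in 1.24% of windows 2 kb away. Each list was thus more frequent in its own strain, by 2.80 times in B6 and 2.69 times in KI, and most strain-only peaks held none of its words. Outside the very long genes, where the lists were chosen, 5.34% of B6 peaks and 4.77% of KI peaks held a word of their own list. The word AGAAGCTACT was in 28 B6 and 1 KI peaks of very long genes, and CAGTAGCTTC, seen in the Plcb1 peak, was in 22 and 1. The KI word GGAATGTGAC, seen in the Opcml and Alk peaks, was in 28 KI and 5 B6 peaks, and GAATGTGACC was in 25 and 2. Words of a list overlap one another or lie together, as in the Nrxn3 and Alk peaks, so these counts are not independent. Listed words at least 40 bases apart in the same window were found in 13 of the 97 KI peaks (13.4%, 8.002% to 21.6%) and in 4 of the 205 B6 peaks (1.951%, 0.761% to 4.91%). With windows of 200 bp and lists chosen anew this order turned, with 3 of 38 KI peaks (7.89%) and 24 of 204 B6 peaks (11.8%). At that setting the B6 share was 4.28% (3.74% to 4.90%) against 3.27% in KI peaks and 4.03% (3.51% to 4.63%) at 2 kb. The B6 excess over windows 2 kb away was thus within counting error when window and list changed together. Of that B6 list, TACACACACA, a CA repeat, was in 103 B6 and 40 KI peaks. The KI share of 1.24% (0.906% to 1.70%) stood beside 0.546% in B6 peaks and 0.719% (0.475% to 1.09%) at 2 kb, and the intervals for peaks and for 2 kb overlapped.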

How the data were processed

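Spermatocyte chromatin was digested with MNase and immunoprecipitated for H3K36me3 (the sample labels write H3K36me6). The authors trimmed reads, aligned them to mm9 with BWA (version 1.2.3 per the labels), merged replicates and ran ZINBA on the merged reads with the input of that strain as control. The deposited lists give chromosome, start and end in bp, with no counts or scores, so the depth behind a peak is unknown. Broad regions start on a 500-bp grid plus 1, and positions were read as 1-based with both ends included. No interval passed a chromosome end.

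Broad regions were merged per strain and intersected with gene spans in Python 3.11.15 (numpy 2.4.6, pandas 2.3.3). Shared counts were checked with bedtools 2.31.1, and the code was tested on simulated data. Wilson 95% intervals came from scipy 1.17.1, and sequence from samtools 1.23.1. With 1 pooled list per strain, calls were made by size and nothing was tested. The genes, functional lists and words were chosen with earlier results of these data known. The genes named are the 10 longest, the 10 with the highest mean coverage, the 5 with the largest difference each way, the 5 with the most refined peaks, those without a broad region and the longest of each list; others were named after their values were seen, and a few that these rules give are not reported here. Alternatives were the span limit, transcript spans, overlapping genes, region width, gaps, peak assignment, overlap, call rule and window. The input reads and the sex chromosomes were left out of the comparisons.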

Additional observations from a re-analysis of the deposited data

How the results depend on the processing

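Of 47 alternative values 18 stayed within their counting interval or within 1.5 times, 29 moved and 0 changed sign. Counts, shares and densities are never negative, so for them the 0 is fixed in advance and is no evidence of stability. These labels do not record the order of the strains. The order of the strains turned in a pair of cases given below, the medians at 200 kb and sharing with broad regions. With pooled lists there was no sample to leave out. No paired analysis was possible because each strain has 1 pooled list.

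With a minimum span of 500 kb there were 188 genes, with median covered shares of 2.34% in B6 and 3.18% in KI and 9.04% and 5.32% of genes at 50% or more. At 200 kb there were 909 genes, with medians of 5.89% in B6 and 5.52% in KI, which puts B6 above KI, and shares of 24.5% and 19.1%. Without regions under 5 kb both medians were 0 and the shares were 11.1% and 5.57%. Genes that overlap no other had 30.2 and 32.1 refined peaks per Mb. Shared peaks were 10.96% in B6 and 9.90% in KI with an overlap of 50% of the shorter peak, 4.94% and 4.48% with 50% of both, 28.3% and 25.9% within 500 bp, and 45.7% and 68.4% when a broad region of the other strain sufficed, which puts KI above B6. A ratio of 1.5 called 50 genes higher in B6 and 5 in KI, and a difference of 20 points called 33 and 0. Peak density in the first 30 kb of KI genes was 1.08 times that of the span, beside 1.01 for the first 10%. In windows of 200 bp the KI words were in 1.24% of KI peaks.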

Other observations

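Genes of 300 kb or more on the X chromosome lie outside the autosomal rule and were left out above. There were 25, with a median covered share of 4.63% in B6 and 3.91% in KI, and 18 were higher in B6 and 7 in KI. Dmd, the dystrophin gene, spans 2257 kb with a covered share of 5.36% in B6 and 3.94% in KI, with 34 and 33 refined peaks. Il1rapl1, a synaptic adhesion gene of 1375 kb, was at 1.346% and 1.78%. The highest share in B6 was in Cask, a scaffold kinase gene, with 87.0% against 64.1% in KI, and the highest in KI was in Pola1, the catalytic subunit of DNA polymerase alpha, with 73.9% against 77.9% in B6. Diap2, a formin gene of 716.1 kb, had 68.1% and 45.5% with 127 and 131 refined peaks.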
